A study of Mus musculus with 12 samples.

Results

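The 1565 monohormonal Ppy cells (γ-cells) described here were chosen by their measured hormone transcripts from 5982 mouse islet cells in 4 single-cell RNA-seq libraries. The level of a gene in a cell was the natural logarithm of 1 plus its UMIs (unique molecular identifiers, each standing for 1 captured transcript) per 10000 UMIs of that cell. A γ-cell had a Ppy level above 3.23, a Gcg (glucagon) level of at most 5.12, an Ins2 (insulin) level of at most 6.36 and an Sst (somatostatin) level of at most 3.32. Of the cells within these thresholds, 101 were set aside because their level of Cd74 (antigen presentation), Col3a1 (a fibroblast collagen) or Plvap (endothelium) was above 3. The 4 hormones and these 3 genes made the choice, so their values are given as a description with no test. With the same thresholds, 671 cells expressed Gcg alone (α-cells), 530 Ins2 alone (β-cells) and 276 Sst alone (δ-cells).

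The single-cell libraries came from islets of 2-month-old Ppy-rtTA;R26-YFP mice of mixed background, given doxycycline at 1 mg/ml in the drinking water 1 month before collection. In these mice, rtTA, a transactivator that works only with doxycycline, replaces the coding sequence of 1 Ppy allele. The cells of all single-cell classes therefore carry a single intact Ppy allele, and the YFP label marks cells in which the Ppy locus has been active. The label of the bulk libraries from these mice adds TetO-Cre, the recombinase that rtTA switches on. Islets of several mice were pooled, dissociated and sorted into a YFP+ and a YFP− library in each of 2 experiments. γ-cells were 721 of the 1300 YFP+ cells of experiment 1 (55.5%, 95% Clopper-Pearson interval 52.7 to 58.2) and 828 of the 1498 of experiment 2 (55.3%, 52.7 to 57.8). The YFP− libraries gave 2 of 1495 cells (0.134%) and 14 of 1689 (0.829%). Because nearly all γ-cells were sorted as YFP+ and nearly all α-, β- and δ-cells as YFP−, cell class and library cannot be told apart within an experiment. Another set of libraries was made from bulk sorted cells, with 5 libraries of YFP+ cells of Ppy-rtTA;TetO-Cre;R26-YFP mice and 3 of YFP+ δ-cells of Sst-Cre;R26-YFP mice, all 2 months old and of mixed background. The δ-cell mice carry no Ppy-rtTA allele. The shared protocol names doxycycline at 1 mg/ml for labelling Ppy cells, and whether the Sst-Cre mice received it is not clear.

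γ-cells are a minority of the hormone cells of the mouse islet and lie mostly in the part of the pancreas that forms from the ventral bud. Their hormone, pancreatic polypeptide, is released after a meal under vagal control and acts through the Y4 receptor to reduce appetite and exocrine secretion. It belongs to the same peptide family as peptide YY, a gut and islet hormone encoded by Pyy, and neuropeptide Y, encoded by Npy.

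Ppy and Pyy are neighbours on the same strand. In RefSeq (GRCm38.p6) Ppy occupies chr11:102099931-102101319 and Pyy chr11:102106676-102107832, with 5356 bases and 0 other annotated genes between them. They are related in sequence, and how reads that could fit either gene were counted was not examined. The promoters of both are shown because these transcripts dominate the cells. The sequences run on the minus strand from 250 bases before to 50 bases after the transcription start, over chr11:102101270-102101569 for Ppy and chr11:102107783-102108082 for Pyy. Capitals mark every match to the motifs searched on both strands, which were TATAA (TATA box), TAATTA (homeodomain core), CANNTG (E-box) and TGTTTAC (forkhead).
Ppy: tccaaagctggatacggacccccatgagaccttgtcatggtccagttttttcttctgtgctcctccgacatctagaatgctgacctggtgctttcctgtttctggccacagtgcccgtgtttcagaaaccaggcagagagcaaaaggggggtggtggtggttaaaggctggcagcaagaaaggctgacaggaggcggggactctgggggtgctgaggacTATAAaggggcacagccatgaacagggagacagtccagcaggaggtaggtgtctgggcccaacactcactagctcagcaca
Pyy: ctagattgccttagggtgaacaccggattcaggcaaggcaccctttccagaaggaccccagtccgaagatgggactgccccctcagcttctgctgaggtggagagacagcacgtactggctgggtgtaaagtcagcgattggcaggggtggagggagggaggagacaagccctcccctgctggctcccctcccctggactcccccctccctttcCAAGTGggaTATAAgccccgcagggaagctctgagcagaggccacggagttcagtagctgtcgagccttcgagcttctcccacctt

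Both held TATAA, at position -31 of Ppy and -27 of Pyy relative to the start, and 24.9% of the 32851 RefSeq promoters of this length held it. Pyy also held CANNTG at -36, a motif found in 72.3% of promoters. RefSeq gives Pyy another start, downstream of this one, relative to which the same TATAA lies at -83 and the same CANNTG at -92. TAATTA (5.29% of promoters) and TGTTTAC (3.65%) matched neither window.

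Ppy took a large share of the transcripts of each γ-cell. Ppy made up 25.8% of all UMIs of the YFP+ γ-cells of experiment 1 and 24.5% in experiment 2, from 6177444 and 5761271 UMIs. In the median cell it took 25.7% and 24.1%, and the 5th to 95th percentile of cells ran from 9.79 to 39.4% and from 7.22 to 37.8%. The median γ-cell held 7575 UMIs of 1501 genes in experiment 1 and 5887 UMIs of 1249 genes in experiment 2. Their median levels were 7.85 and 7.79 for Ppy, 2.28 and 2.27 for Gcg, 2.62 and 1.76 for Ins2, and 0.904 and 0.901 for Sst. The other islet hormones were thus counted at low levels in γ-cells that passed the thresholds. How much of this came from RNA of other cells was not tested.

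The boundary was sparsely filled for Ppy and occupied for Gcg. In experiment 1 the nearest member above the Ppy threshold was at 3.95 and the nearest cell below it at 2.38, and in experiment 2 they were at 3.88 and 2.96. For Gcg the nearest member and the nearest excluded cell were at 5.10 and 5.12 in experiment 1 and at 5.10 and 5.16 in experiment 2. Within 0.5 of the Gcg threshold lay 13 members and 14 excluded cells in experiment 1 and 26 and 41 in experiment 2. For Ins2 the pairs were 6.01 and 6.39, then 6.28 and 6.36, and for Sst 2.73 and 3.58, then 2.93 and 3.37. Monohormonal γ-cells and cells with both Ppy and Gcg were therefore divided at a point where cells occurred on both sides.

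**Figure D1:**
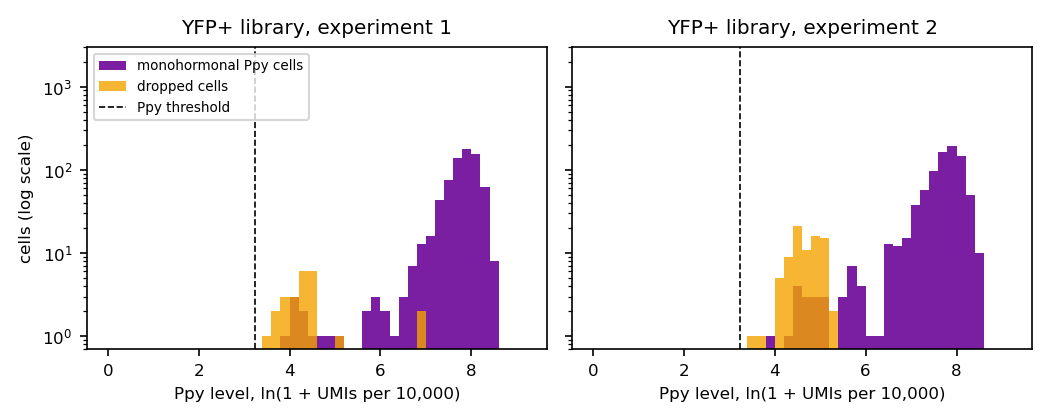
Number of cells (log axis) by Ppy level, ln(1 + UMIs per 10000), for γ-cells and for cells set aside by Cd74, Col3a1 or Plvap in the YFP+ library of each experiment; the dashed line is the Ppy threshold of 3.23. Most γ-cells lie near their medians of 7.85 and 7.79, and the few at the left overlap the cells set aside, whose medians were 4.32 and 4.67.

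A small tail of members overlapped in Ppy level with the cells set aside. Cells set aside in the YFP+ libraries had a median Ppy level of 4.32 in experiment 1 and 4.67 in experiment 2, with a highest level of 6.80 and 5.37. At or below those highest levels lay 28 and 15 γ-cells. Dcn (decorin, of fibroblasts) was at 656 CPM (UMIs per 1000000 UMIs of the cells) in these 28 cells against 8.65 in the other γ-cells of experiment 1, and at 2408 against 2.27 in experiment 2. A Dcn UMI was found in 7 of the 28 cells and 7 of the 15. Igkc, an immunoglobulin light chain of plasma cells, was at 66927 CPM in the 15 cells of experiment 2 against 8.03 in the others, and 1 of the 15 held all of it. Pyy in the tail was at 162140 against 252380 CPM in experiment 1 and at 8663 against 271970 in experiment 2. Iapp (islet amyloid peptide) was at 33335 against 1730 CPM and at 16939 against 2319. Chga (a granule protein) was at 6042 against 1370 and at 3266 against 1599, and Pcsk2 (a prohormone convertase) at 3822 against 3828 and at 830 against 3251. This tail was picked out after seeing the data, and the ratio of Igkc and the levels of the immunoglobulin genes are given below with and without its members.

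Markers of other pancreatic cells ranged from absent to abundant. Summed over the YFP+ γ-cells, 11 acinar genes reached 158 CPM in experiment 1 and 115 in experiment 2, with Clps (colipase) the highest and none at 0. The 7 ductal genes reached 219 and 263 CPM, mostly Spp1, with Cftr at 0. Endothelial genes reached 10.2 and 10.6 CPM, with Cdh5 and Flt1 at 0, and stromal genes 52.8 and 38.2. The defining β-cell factor Mafa and the δ-cell genes Ghsr, Spock3 and Ptprz1 had no UMI in γ-cells of either YFP+ library. Other members of these lists were present, with Iapp highest of the 12 β-cell markers at 2580 and 2410 CPM and Rbp4 highest of the 7 δ-cell markers at 376.5 and 373.4. Between pairs of libraries 21 cell barcodes were shared, 6 of them of γ-cells.

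Comparisons between classes used the summed UMIs of each class in each experiment, 14 sums over 7 classes, with edgeR and the experiment as a block. Values are CPM scaled for composition, each given for experiment 1 and then experiment 2. A call needed a change above 0.5 on the natural log scale and a Benjamini-Hochberg adjusted p no higher than 0.05. Because the γ-cell sums are shared by the 3 comparisons, these are not independent of each other.

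Pyy was the most abundant transcript of γ-cells outside the 4 hormones that chose them. It stood at 288410 and 307580 scaled CPM in γ-cells, against 7139 and 5810 in α-cells, 733.5 and 609.9 in β-cells and 28452 and 19840 in δ-cells. Both γ-cell sums were above every α-, β- and δ-cell sum. The log2 fold change was 5.52 (SE 0.23) against α-cells, 8.78 (SE 0.26) against β-cells and 3.62 (SE 0.21) against δ-cells, with adjusted p of 1.60e-13, 3.05e-16 and 3.72e-11. Cells with both Ppy and Gcg of the YFP+ libraries held 134300 and 183360 CPM of Pyy without the composition scaling, against 249950 and 270320 in γ-cells on the same scale. Npy, the other family member, had no UMI in γ-cells, against 36.0 and 55.8 scaled CPM in β-cells and 70.2 and 10.0 in δ-cells. It was at least 160.4-fold lower than in β-cells and at least 140.1-fold lower than in δ-cells, with the floor set at 3 UMIs over the group. In bulk, where Npy was at 0 to 2.20 CPM in γ-cells and 0.170 to 1.70 in δ-cells, it was not called (log2 0.48, adjusted p = 0.750).

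Folr1, the folate receptor α, differed between experiments as well as between classes. It was at 490.9 and 64.7 scaled CPM in γ-cells, 16.5 and 0.961 in α-cells, 33.5 and 1.24 in β-cells and 112 and 0 in δ-cells. Within each experiment γ-cells were highest, but the γ-cells of experiment 2 were below the δ-cells of experiment 1. The log2 fold changes were 5.12 (SE 0.31), 4.05 (SE 0.30) and 2.49 (SE 0.29), all called. RefSeq places Folr1 at chr7:101858331-101870788.

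Tspan8, a tetraspanin of the cell surface, was steady between experiments. Its levels were 479.5 and 418.8 scaled CPM in γ-cells, 16.8 and 8.97 in α-cells, 20.4 and 32.2 in β-cells and 194.5 and 118.8 in δ-cells. The log2 fold changes were 5.13 (SE 0.23), 4.32 (SE 0.23) and 1.53 (SE 0.19), and the groups did not overlap. The 3 markers given for γ-cells besides Ppy were therefore all called higher against each class. The study chose these genes for being higher against each class in the same single-cell libraries. Their calls here are no independent evidence of that direction.

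Of 10736 genes tested, 522 (4.86%) were higher and 598 (5.57%) lower in γ-cells than in α-cells, 1195 (11.1%) higher and 1345 (12.5%) lower than in β-cells, and 497 (4.63%) higher and 663 (6.18%) lower than in δ-cells. Higher against all 3 were 83 genes (0.773%), and lower against all 3 were 111 (1.03%). The 83 include the transgenes YFP, on which the cells were sorted, and rtTA, inserted at Ppy. Calls as higher made up 46.6, 47.1 and 42.8% of the calls against α-, β- and δ-cells, and 12.8, 90.2 and 3.87% without composition scaling, which moved the median gene by -0.362, 0.696 and -0.773 on the log2 scale.

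The genes with the largest changes among the 83 were mostly of low level. Vsig1, an adhesion protein known from the stomach, was at 13.0 and 5.87 scaled CPM in γ-cells and at 0 in both α-cell and both δ-cell sums. It was at least 19.6-fold higher than in α-cells, 17.2-fold higher than in β-cells and at least 4.76-fold higher than in δ-cells. Nkx6-3, a homeodomain factor of the gastric epithelium, was at 8.20 and 8.41 in γ-cells, at 0 and 0.961 in α-cells, at 0 in β-cells and at 0 and 1.43 in δ-cells. These 2 genes had at most 1.43 in any α-, β- or δ-cell sum, and rested on 100 and 87 UMIs over all γ-cells. Cells with both Ppy and Gcg held them too, with Vsig1 at 5.68 and 1.97 and Nkx6-3 at 2.58 and 6.18.

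Lrrtm1, a synaptic adhesion protein, was at 18.6 and 15.8 scaled CPM in γ-cells and was at least 34.5-fold higher than in β-cells, where it had no UMI. Bmpr1b, a type I receptor for bone morphogenetic proteins, was at 15.1 and 9.97 and at least 6.31-fold higher than in δ-cells. Kdelr3, which returns proteins to the endoplasmic reticulum, was at 22.7 and 25.2. It changed by 2.50 (SE 0.29), 2.92 (SE 0.34) and 2.57 (SE 0.49) on the log2 scale. Serpina7, the thyroxine-binding globulin, was at 42.5 and 44.2 in γ-cells, 9.36 and 7.05 in α-cells, 11.6 and 4.96 in β-cells and 1.23 and 1.43 in δ-cells, and its changes were 2.39 (SE 0.26), 2.06 (SE 0.27) and 4.98 (SE 0.63). Fgb (the fibrinogen β chain), Lrrk1, Rnasek, Cthrc1, Npb (neuropeptide B), Creb3l3 and Mfap5 were also among them, all at 4.11 to 13.8 scaled CPM in γ-cells.

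Some of these calls rested on few UMIs or few cells. With DESeq2 the calls against δ-cells of Lrrk1, Nkx6-3, Cthrc1, Mfap5, Qpct and Creb3l3 were lost, and Creb3l3 was lost against α-cells too. Mfap5, a microfibril gene, reached 1497 and 1904 CPM in the cells set aside in the YFP+ libraries, and in the low-Ppy tail it was at 252.8 against 2.33 CPM in the other γ-cells of experiment 1 and at 1411.6 against 2.27 in experiment 2. Without the tail it was too low to be tested, and 86 genes were higher than in all 3 classes, 82 of them among the 83.

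**Figure D2:**
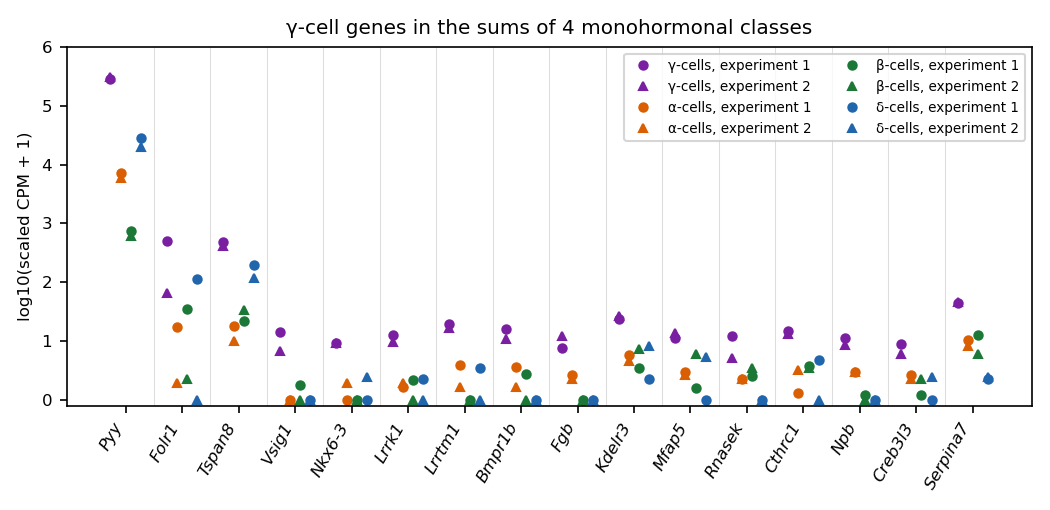
Scaled CPM of γ-cell genes on a log axis, log10(CPM + 1), in γ-, α-, β- and δ-cells, with circles for experiment 1 and triangles for experiment 2. Each point is the sum of 1 class in 1 experiment; Pyy is highest in γ-cells, at 288410 and 307580, and the 2 Folr1 values of γ-cells lie apart at 490.9 and 64.7.

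Cell-surface and vesicle genes divided between these patterns. Of 15 surface proteins tested, 6 were higher and 2 lower than in α-cells, 4 and 2 than in β-cells, and 5 and 4 than in δ-cells. Without composition scaling 3 and 2, 4 and 0, and 3 and 4 of these calls were kept. Their median log2 change was 0.51, 0.31 and -0.45, beside -0.01, 0.00015 and 0.02 over all genes. For this and later lists in the single-cell sums, the share of all genes called higher was 4.86, 11.1 and 4.63% against α-, β- and δ-cells. The share called lower was 5.57, 12.5 and 6.18%. Folr1, Tspan8 and Cd9, another tetraspanin, were higher against all 3 classes. Cd9 was at 122.3 and 108.5 scaled CPM in γ-cells against at most 32.7 elsewhere, with log2 changes of 1.97, 5.08 and 3.54. Gc, the vitamin D-binding protein and an α-cell marker, was also higher against all 3, at 249 and 279.8 in γ-cells against 144.3 and 105.7 in α-cells.

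Granins and processing enzymes differed in direction from class to class. Chgb and Scg2, which pack hormones into granules, were higher than in α-cells, by 1.34 (SE 0.16) and 1.93 (SE 0.21) on the log2 scale, and Pcsk1n was lower. Chga was at 1727 and 1855 scaled CPM, lower than in β-cells (log2 -1.16, SE 0.18) and higher than in δ-cells (1.27, SE 0.18). Of 6 granins tested, 2 were higher and 1 lower than in α-cells, 1 and 3 than in β-cells, and 2 and 0 than in δ-cells. Without composition scaling the 3 lower calls against β-cells (Chga, Scg2 and Scg3) and the 2 higher calls against δ-cells (Chga and Scg5) were lost. Among 8 processing genes, Qpct, which forms the N-terminal pyroglutamate of peptides, was higher against all 3 classes. Pcsk1, the prohormone convertase of β-cells, was at 16.0 and 13.7 in γ-cells, 0.969 and 0.961 in α-cells, 155 and 161 in β-cells and 12.3 and 12.9 in δ-cells. It was higher than in α-cells, lower than in β-cells and not called against δ-cells.

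Receptors of hormones and nutrients gave a mixed profile, and none of the 17 tested was higher or lower against all 3 classes. Against α-cells 4 were higher and 4 lower, against β-cells 6 and 6, and against δ-cells 5 and 3. Of the 6 lower against β-cells 4 were kept without composition scaling, and of the 5 higher against δ-cells 3 with DESeq2. Chrm3, the muscarinic receptor for vagal acetylcholine, was at 16.6 and 24.1 scaled CPM in γ-cells, 0.323 and 0.320 in α-cells, 21.4 and 57.0 in β-cells and 0 and 7.16 in δ-cells. It was called higher than in α-cells, which held 2 UMIs of it in all (log2 5.81, SE 0.60). Gpr119, a receptor for fatty acid amides, was at 17.0 and 16.6 in γ-cells, at least 8.46-fold higher than in δ-cells, which had no UMI, and lower than in α-cells, at 34.6 and 41.0. Ffar1, the long-chain fatty acid receptor, was at 18.4 and 14.3 in γ-cells and at 90.6 and 100 in β-cells. Casr, the calcium-sensing receptor, was higher than in α- and β-cells by 1.13 and 1.08 on the log2 scale, and it was at 45.1 in γ-cells of experiment 1 and 9.39 in those of experiment 2. The α2-adrenergic receptor Adra2a was at 0 and 0.587 in γ-cells, against 42.0 and 54.5 in β-cells and 6.15 and 11.5 in δ-cells.

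Of 13 glucose-handling genes tested, 3, 4 and 4 were lower than in α-, β- and δ-cells, and 0, 1 and 1 higher. Of all genes, 5.57, 12.5 and 6.18% were lower and 4.86, 11.1 and 4.63% higher. With DESeq2 1, 4 and 2 of the lower calls were kept. G6pc2, a glucose-6-phosphatase of islets, was at 1.30 and 1.37 scaled CPM in γ-cells and was lower against all 3, with 1011 and 852.8 in β-cells. The glucose transporter gene Slc2a2 was at 0.559 and 0.978 in γ-cells against 365 and 263 in β-cells. Abcc8 and Kcnj11, the subunits of the ATP-sensitive potassium channel, were at 125 and 127 and at 46.4 and 37.3 and were called in none of the 3 comparisons.

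Of 12 general endocrine transcription factors tested, 0 were higher and 2 lower than in α-cells, 1 and 6 than in β-cells, and 1 and 3 than in δ-cells. Without composition scaling 2 of the 6 lower calls against β-cells were kept, and those of Neurod1, Myt1, St18 and Glis3 were lost. The gene lower against all 3 was Rfx6, needed for endocrine development. Its levels were 4.47 and 4.30 scaled CPM in γ-cells, 14.2 and 14.1 in α-cells, 19.3 and 14.9 in β-cells and 23.4 and 34.4 in δ-cells, and it fell by 1.68 (SE 0.25), 2.09 (SE 0.25) and 2.69 (SE 0.31) on the log2 scale. Nkx6-1, a β-cell factor, was at 47.9 and 44.0 in γ-cells, between α-cells (2.91 and 11.5) and β-cells (227 and 259). Pdx1 was at 9.69 and 6.45 in γ-cells, also above α-cells and below β-cells. Irx1 and Irx2, factors of α-cells, were at 1.30 and 0.978 and at 3.91 and 4.69, against 36.2 and 31.1 and 65.2 and 56.1 in α-cells. Sim1, a bHLH-PAS factor, was at 0.186 and 0.391 in γ-cells, 3 UMIs in all, against 22.3 and 20.2 in α-cells, and it was lower in all 3 comparisons.

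Foxp2, a forkhead factor, and Galnt13 were called higher against β- and δ-cells and not called against α-cells. Foxp2 was at least 8.97-fold and the glycosyltransferase gene Galnt13 at least 8.67-fold higher than in δ-cells, where neither had a UMI. Etv1 was at 496 and 553 in γ-cells and 417 and 416 in α-cells, against 24.3 and 16.1 in β-cells. A list of 6 factors that the study named for bulk γ-cells, Etv1 and Foxp2 among them, had 0 higher than in α-cells, 5 than in β-cells and 2 than in δ-cells. That list was chosen on the bulk libraries of this series and is no independent evidence of its direction.

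Further genes with large changes are given against the class in which they were named. Limch1, which binds non-muscle myosin, was at 32.2 and 29.9 scaled CPM against 0.323 and 1.28 in α-cells. Gfra3, a receptor for a glial-type neurotrophic factor, had no UMI in γ-cells and 20.7 and 12.2 in α-cells, at least 57.4-fold lower. Ins1, the second insulin gene, was 1290-fold lower than in β-cells, at 292 and 274.5 against 405560 and 331700, and Mafa was at least 1162-fold lower. Genes far lower than in δ-cells included Ptprz1 (at least 214.6-fold), the adhesion receptor Adgrf5 (at least 98.5-fold) and Spock3 (at least 94.8-fold), none of which had a UMI in γ-cells. The call of Spock3 was lost with DESeq2. Of 11 β-cell markers tested, 4 were higher and 5 lower than in α-cells, all 11 were lower than in β-cells, and 1 was higher (Nkx6-1) and 5 lower than in δ-cells, Ins1, Iapp, Mafa, Pdx1 and G6pc2. Of the 4 higher than in α-cells, 2 (Nkx6-1 and Pdx1) were kept without composition scaling. Unscaled, Ins1 was at 244 and 224.1 CPM in YFP+ γ-cells and 3002 and 1718 in the 2 and 14 YFP− γ-cells. Cells with Ppy and Gcg or Ppy and Sst held 261.6 and 498.5 in YFP+ and 2319 and 1366 in YFP− libraries. Ins1 thus went with the library as well as the class, and the part of free RNA was not tested. Of Ins1, Mafa and G6pc2, only Mafa was lower against all 3 classes with the library as the block.

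Calls in a list of immediate early and heat shock genes were all as higher in γ-cells. None of these calls was of the heat shock genes Hspa1a and Hspa1b, which had at most 9 UMIs in the YFP+ γ-cells of an experiment. Both were called lower than in δ-cells in bulk. Of 15 tested, 3 were higher than in α-cells, 12 than in β-cells and 7 than in δ-cells, with none lower. The medians of the list were 0.13, 1.39 and 1.13. Ier2 and Fosb were higher against all 3, with Ier2 at 159 and 87.0 scaled CPM in γ-cells and 70.7 and 49.0 in α-cells. Without composition scaling 1, 12 and 2 of the calls were kept, with Fosb and Ier2 lost against α-cells and Fos, Jun, Junb, Ier2 and Btg2 against δ-cells. With DESeq2 2, 9 and 7 were kept, with Fosb lost against α-cells and Ier3, Nr4a1 and Klf6 against β-cells. Summed without scaling, the list reached 1180 and 838 CPM in YFP+ γ-cells, 1097 and 945 in α-cells of the YFP− libraries, 242 and 277 in β-cells and 699 and 1014 in δ-cells. These genes are known to respond to cell dissociation.

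Folding genes of the endoplasmic reticulum were called mainly against β-cells. Of 16 tested, 8 were lower than in β-cells with a list median of -0.73, among them the chaperone gene Hspa5 at 186 and 206 scaled CPM against 466 and 488. Against α-cells 3 were higher and 0 lower, and against δ-cells 2 and 1. Without composition scaling 1 of the 8 lower calls against β-cells was kept, with Hspa5, Calr and Canx among those lost, and 1 of the 3 and 0 of the 2 higher calls against α- and δ-cells. Of 6 cell cycle genes none was called against α- or δ-cells, and Tyms was higher than in β-cells, a call lost with DESeq2.

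Genes lower than in all 3 classes included sets that belong to other cells and followed the library. The 10 with the largest falls were Ighg3, Apoa4, Apoc3, Elane, Muc13, Muc2, Ifi27l2b, Defa24, Phgr1 and Cdhr5, which are genes of plasma cells, neutrophils and intestinal epithelium. With DESeq2 8 of these 10, the exceptions being Ighg3 and Elane, lost their call in at least 1 comparison. Summed over these 10 genes, YFP+ γ-cells had 0 UMIs in both experiments. In the YFP− library of experiment 2 the sum was 204.7 CPM in α-cells, 153.2 in β-cells, 376.7 in δ-cells, 232.6 in cells with Ppy and Gcg or Ppy and Sst, 912.9 in the cells set aside and 60.8 (4 UMIs) in the 14 γ-cells. In that of experiment 1 it was 22.0 in α-cells, 14.0 in β-cells, 34.7 in δ-cells and 5860 in the cells set aside, nearly all of it Ighg3. Each class sorted as YFP− in experiment 2 thus carried them, γ-cells included. Of 11 acinar genes 8, 6 and 11 were lower than in α-, β- and δ-cells and 6 lower in all 3, and with DESeq2 all 8 and all 6 of the calls against α- and β-cells were lost. Summed, they were at 158 and 115 CPM in YFP+ γ-cells, 3039 and 275 in YFP− α-cells, 760.9 and 85.7 in YFP− β-cells and 5022 and 11300 in YFP− δ-cells. On this scale, without composition scaling, the β-cells of experiment 2 were below the γ-cells. In the γ-cell sum of experiment 1, the 2 YFP− cells gave 1085 acinar UMIs and the 721 YFP+ cells 976. Clps was at 77.9 and 60.03 scaled CPM in γ-cells, 836 and 97.7 in α-cells and 1209 and 1251 in δ-cells. The part of free RNA in the results of this paragraph was not tested.

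With 1 sum per class and library and the library as the block, 9 genes (0.108%) were higher and 9 (0.108%) lower than in all 3 classes, of 8353 tested. A sum needed at least 5 cells. The YFP+ and YFP− libraries were linked here only by the 14 YFP− γ-cells of experiment 2 and by cells with Ppy and another hormone. Of the 83 genes, 8 were among the 9 higher ones, including Pyy, Folr1, Serpina7, Prdx1 (a peroxiredoxin), Aga (a lysosomal amidase), Tmem176a and the transgene rtTA. Of the 65 of the 83 that could be tested this way, 55 were higher in all 3 comparisons in sign. The log2 change of Pyy was then 4.33, 7.59 and 2.43, that of Serpina7 2.32, 2.25 and 4.93, and that of Folr1 3.84, 2.86 and 1.23, with an adjusted p of 0.04995 against δ-cells. Tspan8 kept its calls against α- and β-cells and lost that against δ-cells (log2 0.69, adjusted p = 0.249). Kdelr3 was called in none of the 3 comparisons (adjusted p = 0.254, 0.0671 and 0.354). Lrrtm1 kept its call against β-cells and lost those against α- and δ-cells (adjusted p = 0.0637 and 0.116). Rfx6, Sim1 and Mafa were among the 9 lower genes, and of the 10 genes of plasma cells, neutrophils and intestine 6 could be tested in this way, of which 0 were called.

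Few genes differed past 2-fold between γ-cells of the 2 experiments. Among 1277 genes at 50 CPM or more in the YFP+ γ-cells of at least 1 experiment, 16 (1.25%) differed by more than 2-fold, 10 higher and 6 lower in experiment 2. With cells thinned to 1000 UMIs the number was 42. With 1 library per experiment there is no test, and the intervals cover counting error only. In α-cells the share past 2-fold was 4.98%, in β-cells 7.56% and in δ-cells 9.67%, and in cells with both Ppy and Gcg it was 1.12%. These shares were not matched for depth, with 576617 and 438022 UMIs in δ-cells against 6177444 and 5761271 in YFP+ γ-cells.

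Folr1 was the gene that differed most downwards. It was at 425.7 CPM (95% Poisson interval 409.6 to 442.3) in γ-cells of experiment 1 and 56.8 (50.8 to 63.3) in experiment 2, a log2 ratio of -2.91. It was at 17.8 and 1.12 CPM (3 UMIs) in α-cells, 16.9 and 0.786 (1 UMI) in β-cells, 157.8 and 0 in δ-cells and 202 and 26.7 in cells with both Ppy and Gcg, so each of these classes had less in experiment 2. A Folr1 UMI was found in 85.0% of γ-cells of experiment 1 and 25.6% of experiment 2, and in 32.9% and 4.47% after thinning each cell to 1000 UMIs. None of the cells set aside in the YFP+ libraries had one. The cold-induced RNA-binding genes Rbm3 (97.9 to 32.6 CPM) and Cirbp (141 to 74.5) and the immediate early gene Junb (159.8 to 80.2) also had lower values in experiment 2. Lpl, the lipoprotein lipase, was at 32.5 and 111.3 CPM, and the long noncoding RNA Xist at 1072 and 2441, with log2 ratios of 1.15 to 2.09 for Xist in α-, β- and δ-cells.

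Immunoglobulin genes had the largest ratios and came from few cells. Igkc was at 13.1 and 427.7 CPM, Igha at 0.809 and 180.9 and Jchain at 0.809 and 122.2. In experiment 2 without the low-Ppy tail they were at 8.03, 33.4 and 47.2 CPM. In experiment 2 the 3 highest of 828 γ-cells held 98.9% of the Igkc UMIs, 97.4% of those of Igha and 99.2% of those of Jchain, and 1 cell held 98.1% of Igkc. For Lpl and Folr1 the 3 highest cells held 3.59% and 5.20%. Without the low-Ppy tail the log2 ratio of Igkc turned from 5.03 to -0.71 and 14 genes were past 2-fold. Pyy (249950 and 270320 CPM) and Tspan8 (416 and 367) differed little.

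**Figure D3:**
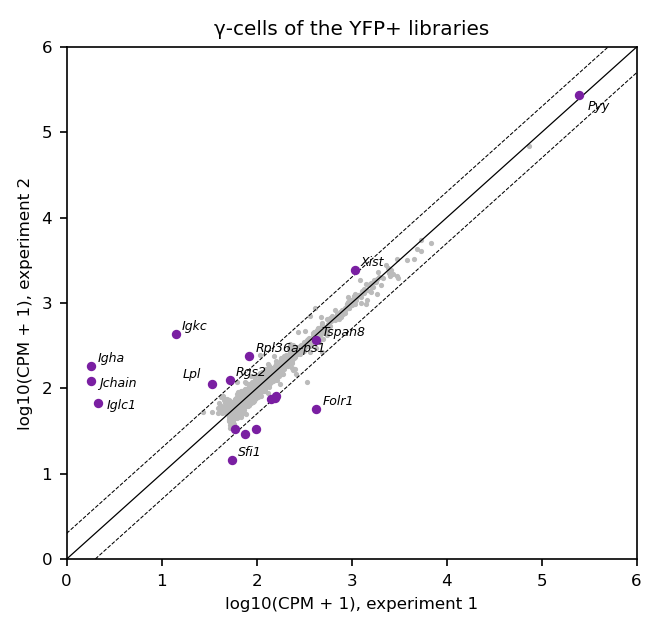
CPM of each gene in YFP+ γ-cells of experiment 1 (horizontal) against experiment 2 (vertical), both as log10(CPM + 1); the solid line marks equal values and dashed lines a 2-fold difference of CPM + 1. Most genes lie between the dashed lines, with Folr1 below them and Igkc, Igha, Jchain and Lpl above.

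Variation among γ-cells was measured at equal depth. The 4 hormones were taken out, and 704 cells of experiment 1 and 737 of experiment 2 were thinned to 2000 of the remaining UMIs, leaving out 17 and 91 shallower cells. The variance over the mean is 1 for counting alone, and its median over 2993 genes was 1.02 and 1.04. In both experiments it was above 2 for 21 genes (0.702%).

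Pyy varied over a wide but continuous range. Its mean was 621 and 680 of 2000 UMIs, with a variance over mean of 104 and 92.6, and the highest 5% of cells held 8.95 and 8.38% of its UMIs. Ttr, the thyroxine carrier transthyretin, had values of 10.4 and 9.57, Chga 7.29 and 8.16, and Malat1, a nuclear noncoding RNA, 44.3 and 46.6. Across cells Pyy ranked with Ttr (Spearman's rho 0.41 and 0.45) and against Malat1 (-0.52 and -0.46) and the mitochondrial gene mt-Co3 (-0.50 and -0.50). These correlations are over cells of 1 library each, share the fixed total of 2000 UMIs with a gene that takes much of it, and carry no test. The markers Tspan8 (1.15 and 1.25) and Folr1 (1.60 and 1.10) stand beside 95th percentiles over all genes of 1.21 and 1.25, which Folr1 passed in experiment 1.

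Iapp, the islet amyloid peptide secreted with insulin, was concentrated in a few γ-cells. Its variance over mean was 142 and 168, and the highest 5% of cells held 76.4% and 86.7% of its UMIs. No Iapp UMI was left in 253 of 704 and 399 of 737 cells, whereas 37 and 42 cells had 20 or more, up to 456 and 457. In those cells the mean of Chga was 19.2 against 3.52 UMIs in experiment 1 and 22.2 against 3.63 in experiment 2. The mean of Pyy was 312.7 against 638.4 and 353.4 against 700.3, and the median Ppy level was 7.22 against 7.87 and 7.04 against 7.82. The median Ins2 level was 2.93 against 2.59 and 2.44 against 1.71. The mean of Ins1 was 1.38 against 0.648 UMIs and 5.33 against 0.311, the latter resting on few cells, with a median of 0 and 77 and 38 UMIs in the highest 2 of the 42. The median of Ttr was 5 against 8 UMIs and 3 against 8. Iapp was also called higher in γ-cells than in α-cells (2973 and 2772 against 1812 and 1146 scaled CPM), a difference that these cells enter and a call that is lost without composition scaling. Without the low-Ppy tail the smaller of the 2 values of Iapp was still 83.1, whereas that of Dcn went from 14.8 to 0.993.

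**Figure D4:**
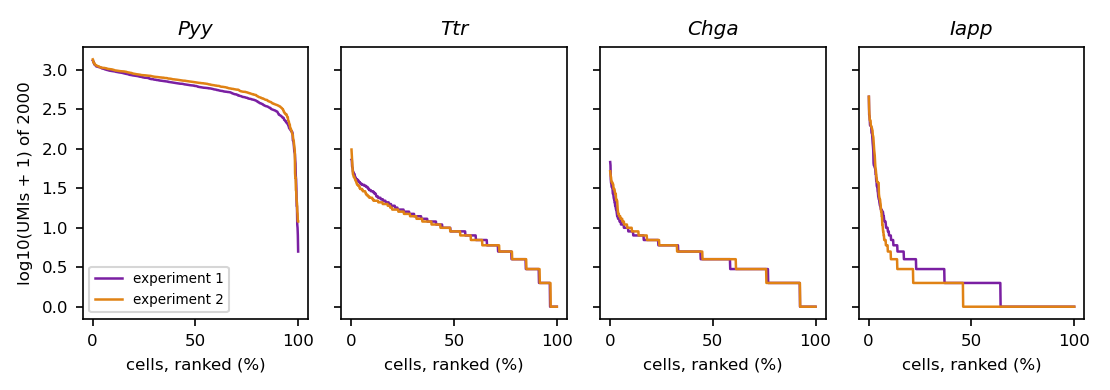
UMIs of Pyy, Ttr, Chga and Iapp per γ-cell, as log10(UMIs + 1) after thinning to 2000 non-hormone UMIs, against the percentile of cells ranked by that gene, for both experiments. The Iapp curve lies at 0 for many cells and climbs to 456 and 457 UMIs at its end, whereas Pyy had 20 or more UMIs in 698 of 704 and 732 of 737 cells.

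The 16 γ-cells of the YFP− libraries held the γ-cell markers. A YFP UMI was found in 0 of 16, where the exact upper limit of 20.6% is for cells with a UMI and not for labelled cells, and an rtTA UMI in 3 of 16 (18.8%), against 62.7% and 52.9% of the YFP+ γ-cells. In the 14 cells of experiment 2 Pyy was at 237230 CPM against 270320 in the YFP+ γ-cells of that experiment, Folr1 at 60.8 (4 UMIs) against 56.8 and Tspan8 at 440.8 against 367. The median levels of Gcg and Ins2 in these 14 cells were 3.59 and 3.49, against 2.26 and 1.75 in the YFP+ γ-cells of experiment 2. The 2 cells from experiment 1 held 52537 CPM of acinar transcripts.

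The bulk libraries of YFP+ Ppy-lineage cells gave an independent set of samples but a wider population. Besides Ppy at 87365 to 116450 CPM, the 5 γ-cell libraries held Gcg at 43968 to 83707, Ins2 at 5225 to 15417 and Sst at 7119 to 11511, so they were not monohormonal. The δ-cell libraries held Ppy at 10889 to 16501 CPM. Fewer cells of a type and less RNA per cell cannot be told apart in bulk samples. Genotype, sequencer, read layout (paired-end for γ-cells, single-end for δ-cells) and any difference in doxycycline went with the group and cannot be told apart from it. The study used male and female mice. Xist also went with the group, with values given below, and any difference in the sex of the mice cannot be told apart from the group either. The libraries summed to 14633838 to 31784878 counts for γ-cells and 7641916 to 11773598 for δ-cells.

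Of 17922 genes tested in bulk, 3712 (20.7%) were higher and 2552 (14.2%) lower in γ-cells (adjusted p no higher than 0.05, at least 2-fold). Calls as higher were 59.3% of all, and 44.9% with upper-quartile scaling. Pyy was at 66020, 76209, 85490, 86030 and 85988 CPM in γ-cell libraries and at 14342, 21643 and 19790 in δ-cell libraries. The groups did not overlap, with a log2 fold change of 2.37 (SE 0.26, adjusted p = 3.00e-05). Folr1 was at 227.7, 344.2, 138.3, 235.4 and 188.1 against 30.9, 37.7 and 103.4, also apart, with a change of 2.27 (SE 0.43, adjusted p = 0.00126). Tspan8 was at 440.1, 406.6, 436.3, 479.3 and 412.5 against 338.1, 461.7 and 362.0, overlapping and not called at 0.43 (SE 0.14).

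Many single-cell γ-cell genes were also higher in the bulk γ-cells. Vsig1 was at 14.5 to 27.2 CPM against 0.0941 to 1.05 (log2 5.52, SE 0.49), Lrrtm1 at 32.5 to 90.6 against 1.53 to 3.79 (4.92, SE 0.42) and Nkx6-3 at 3.31 to 7.07 against 0.262 to 0.595 (3.99, SE 0.47). Fgb, Bmpr1b, Npb, Lrrk1, Cthrc1, Creb3l3, Serpina7, Cd9 and Qpct were called higher too. Kdelr3, Mfap5, Rnasek and Gc were not called. Of 78 genes higher in all 3 single-cell comparisons and tested in bulk, 42 (53.8%) were higher and 5 lower, against 24.7% higher among all 10285 genes common to both data sets. Of the 99 lower genes 47 (47.5%) were lower and 17 higher, against 10.3% lower among all.

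Other genes and lists described above had these bulk values. Beside the lists, 20.7% of all genes tested in bulk were higher and 14.2% lower. In the single-cell sums against δ-cells, with a smaller minimum change, the shares were 4.63 and 6.18%. Rfx6 was lower in both, at 72.9 to 89.4 CPM against 237.8 to 311.3. Gpr119, Chrm3 and Casr were higher in bulk γ-cells by 2.28, 3.48 and 1.86 on the log2 scale. Adra2a was also called higher in bulk, although it was lower than in δ-cells in the single-cell sums. Of 25 hormone and nutrient receptors tested in bulk, 13 were higher and 4 lower. Of 17 immediate early and heat shock genes, 4 were higher and 10 lower in bulk, with Junb at 282 to 407 CPM against 47.0 to 96.5 and Fos at 309.7 to 981 against 1618 to 2545. Of 11 β-cell markers 6 were higher in bulk γ-cells and 0 lower, where the single-cell sums against δ-cells had 1 higher and 5 lower. Ins1, Mafa and G6pc2 went opposite ways, with Ins1 at 616 to 2445 CPM in bulk γ-cells and 105 to 250.7 in bulk δ-cells. Of 8 α-cell markers 7 were higher in bulk, and 4 in the single-cell sums against δ-cells, with 0 lower in both. Of 14 glucose-handling genes 5 were higher and 1 lower in bulk, against 1 and 4 in the single-cell sums. Of 14 general endocrine transcription factors 6 were higher and 3 lower in bulk, against 1 and 3. Insm1 was lower in the single-cell sums and higher in bulk. All 11 acinar markers were lower. Xist was at 44.2 to 118.1 CPM in γ-cells and 0.654 to 1.51 in δ-cells, and Malat1 at 491 to 1307 against 7514 to 8105. Fos, Fosb, Zfp36 and Btg2, lower in bulk, were higher than in δ-cells in the single-cell sums.

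**Figure D5:**
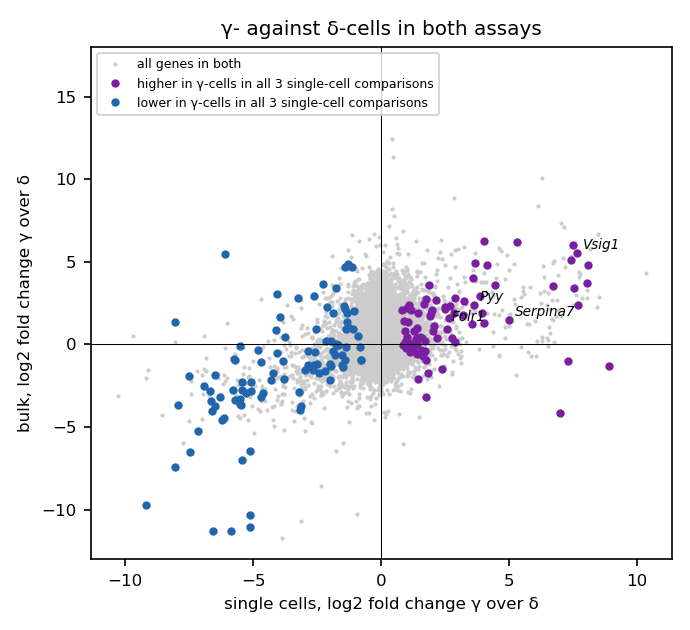
Log2 fold change of γ- against δ-cells in single-cell sums (horizontal) and in bulk libraries (vertical), 1 point per gene, with genes higher than in all 3 single-cell classes in purple and genes lower in all 3 in blue. Of the purple genes 42 of 78 were called higher in bulk, and Pyy and Vsig1 lie in the upper right.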

How the data were processed

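Single-cell libraries were made with 10x Chromium 3' chemistry from sorted YFP+ and YFP− islet cells. Files hold UMI counts per gene and cell that the authors deposited as unnormalized matrices. The submitters' processing notes name Cell Ranger, Seurat, STAR 2.7.2b, HTSeq 0.9.1, DESeq2 1.28.1, R 3.6.1 and mm 10. Bulk libraries (SMARTer, Nextera XT) were deposited by the authors as raw counts per gene in 1 table, of which 6 columns of other cell types were not used here. γ-cells and the other classes were found from the thresholds given in the report. No doublet caller was run, and the hormone thresholds and the marker drop stood in its place, with the top 2% of cells by UMIs left out as an alternative.

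UMIs were summed by class and experiment (14 sums, 7 classes), filtered with filterByExpr, scaled by TMM and fitted with edgeR 4.0.16 (R 4.3.3), quasi-likelihood test, with the experiment as a block, and p-values were adjusted (Benjamini-Hochberg) over all genes tested. Each experiment is a pool of mice, so that p-values measure the spread between 2 experiments over 7 classes. Bulk genes with a mean count of at least 5 were tested with edgeR, 5 γ-cell against 3 δ-cell libraries. The labels do not say which bulk libraries came from separate mice, so their p-values measure the spread between these libraries, which may be technical. DESeq2 1.42.0 was an alternative. Counts over cells used Python 3.11.15, numpy 2.4.6, scipy 1.17.1 and pandas 2.3.3. The fits were tested on simulated data.

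Named genes were the 5 largest changes in each direction per comparison at 10 scaled CPM or more in the higher class, the 15 higher and 10 lower in all 3 comparisons, and the members of 26 lists of 253 genes. A few genes named by these rules are left out of the text, though every count includes them. The members and the lists were chosen with earlier results of these data known. Alternatives changed the scaling, the filter, the threshold of change, the block, the hormone thresholds, the depth, the dropped cells and the libraries used. Intervals of shares and counts cover counting error only.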

Additional observations from a re-analysis of the deposited data

Results flagged for a closer look

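Among 34 named genes looked at in the 5 bulk γ-cell libraries, 4 had 1 library far above the others, where chance alone sets about 1 group in 20 apart. Ighg3, an immunoglobulin heavy chain, was at 88.2 CPM in the highest library. Apoa4 was at 0.0918 CPM, Muc13 at 1.13 CPM and Ifi27l2b at 0.755 CPM in theirs, levels close to 0. The rate of 1 in 20 need not hold at such levels, so no excess over chance is read from the 4. All 4 belong to the genes lower than in all 3 classes of the single-cell sums.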

How the results depend on the processing

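The counts depended on scaling. Genes higher than in α-, β- and δ-cells numbered 337, 848 and 274 with DESeq2 and 254, 4594 and 151 without TMM, and genes lower 368, 974 and 549 and then 1724, 498 and 3753. With DESeq2 the share of higher calls against δ-cells was 33.3%, compared with 42.8%. Without TMM the changes of Sdf2l1 (-0.0017) and Snap25 (-0.015) against δ-cells turned sign before the shift of the median gene is taken off. With sums per class and library, which also changed the block and the genes tested, the counts were 140, 500 and 138 higher and 235, 719 and 240 lower, and with cells thinned to 1000 UMIs 124, 229 and 147 and then 188, 239 and 209. No replicate block gave 311 and 340 against α-cells and 315 and 432 against δ-cells. A log2 change above 1 gave 331 higher than in α-cells. Higher in all 3 were 49 with DESeq2, 37 without TMM, 55 at a log2 change above 1, 47 with no replicate block, 9 by library and 26 when thinned, and lower in all 3 were 59 with DESeq2, 42 with no replicate block, 9 by library and 29 when thinned.

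Leaving out 1 experiment of a class gave 363 to 416 higher and 405 to 495 lower against α-cells, 497 to 1238 and 655 to 1421 against β-cells (lowest without β-cells of experiment 1), 295 to 383 and 383 to 522 against δ-cells (lowest without either δ-cell sum), 57 to 89 higher in all 3 and 54 to 99 lower in all 3 (54 without γ-cells and 58 without δ-cells of experiment 2). The lone sum left in a class was assumed to vary like the others. Muc2 against α-cells ran from -7.45 to 0.0487, the latter without γ-cells of experiment 2.

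In bulk, 3998 genes were lower at a log2 change of at least 0.5, and leaving out 1 library gave 3427 to 3763 higher and 2051 to 2587 lower. Upper-quartile scaling moved the median by -0.300. γ- and δ-cell libraries share the numbers 1 to 3, but their deviations correlated at -0.155, 0.0793 and -0.238, so the numbers do not pair them. A replicate block on these libraries gave 3205 higher and 2174 lower, against 3497 and 2488 unpaired. Npy reversed with the replicate block (-0.617), without γ-cell library 3 (-0.0124) and without δ-cell library 2 (-0.0118), with 1.28 as the highest value without 1 library. Ighg3 reversed without γ-cell library 5 (-0.681) and in libraries 1 to 3 (-0.287), with 11.8 as the highest. Between experiments 42 genes were past 2-fold when thinned, and 8 genes varied above 2. Without the low-Ppy tail, chosen after seeing the data, Igkc turned to -0.710. The cause of these changes was not tested.

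Depth limits the calls of γ-cell genes with few UMIs, and the δ-cell sums, at 576617 and 438022 UMIs, are the shallowest of the 4 hormone classes.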

Other observations

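Of 17 minor islet peptides listed, 5 had enough UMIs over all classes to be tested, which were Iapp and Npy, described above, and Gast, Ucn3 and Sct. Gast, encoding gastrin, was at 1.12 and 0.196 scaled CPM in γ-cells and was lower than in α-cells (5.49 and 4.17). Ucn3, encoding urocortin 3, was at 2.05 and 0.587 against 404 and 220.6 in β-cells and was lower there, and it was not called against α- or δ-cells. Sct, encoding secretin, was at 0.559 and 1.56 and was lower than in δ-cells (3.69 and 11.5), a call lost with DESeq2.

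Of 16 genes of the exocytosis machinery tested, 1 was higher and 0 lower than in α-cells, 2 and 4 than in β-cells, and 2 and 1 than in δ-cells. Of all genes, 4.86, 11.1 and 4.63% were higher and 5.57, 12.5 and 6.18% lower. Without composition scaling 1 of the 4 lower calls against β-cells and 1 of the 2 higher calls against δ-cells were kept. Stx1a, encoding syntaxin 1A of the plasma membrane, was at 12.5 and 13.9 scaled CPM in γ-cells, 6.46 and 5.45 in α-cells, 1.16 and 2.48 in β-cells and 6.15 and 7.16 in δ-cells. It was called higher than in α-cells (log2 1.14, SE 0.26) and β-cells (3.24, SE 0.38), the former lost with DESeq2, and not called against δ-cells. Snap25, its partner in vesicle fusion, was at 158.6 and 137.8 and was called higher than in δ-cells (0.76, SE 0.15). That call was lost without composition scaling (-0.015), where the median gene moved by -0.773 as well.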
